A study of Rattus norvegicus with 12 samples.

Results

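Rats weaned to a diet with soy protein isolate (SPI) were compared with rats weaned to a diet with casein (CAS), by gene expression in the whole tibia. The 3 pools titled SPI-fed and the 3 pools titled CAS-fed were taken by their titles, 6 of the 12 arrays in the series, and all 31042 probe sets other than array controls were read. All animals were Sprague-Dawley rats before puberty, female by the labels and methods, born to dams on a purified casein diet. By the labels they were fed from postnatal day 21 and killed on day 34, whereas the methods put weaning a day earlier. Both diets had the same nitrogen and energy content and were matched for calcium, phosphorus and essential amino acids. Neither of these groups received hormone. The other arrays, 3 from rats on the casein diet given estradiol (E2) and 3 from rats on the SPI diet given E2, shared the estimate of spread. They served for a direct comparison of SPI with E2 and for a test of whether the effect of SPI differed in the presence of E2, which 15.8% of genes passed. RNA came from the right tibia after the marrow had been aspirated, with equal amounts from 2 to 3 rats mixed for a single array. Hence the p-values describe the spread between pools, some of which may be technical, and not the spread between animals.

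Soy protein isolate replaces casein as the protein source and brings isoflavones, plant compounds that bind estrogen receptors. A growing tibia holds bone cells, growth plate cartilage, remaining marrow, vessels and nerve, and muscle and tendon attach to it. Each of these has its own set of transcripts, so a whole-bone array reads a mixture. In such bulk RNA, fewer cells of a type and less RNA per cell cannot be told apart. All values below are read as log2 units around the median of the probe set over the 12 arrays. They hold differences between arrays and no absolute level, so the markers of a tissue could be compared between diets but not checked for presence.

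Several facts of these 6 arrays bear on every result. Eif2s3y, a translation factor gene on the Y chromosome, stood at 0.26, 0.33 and 0.86 in the SPI pools and at -1.82, -1.89 and -2.20 in the CAS pools of these rats labelled female. The difference was 2.45 (SE 0.154, limma adjusted p = 6.93e-07). Its mean was 0.07 in the E2 pools and -0.22 in the SPI+E2 pools, so the CAS pools stood apart from the other groups. SPI against E2 did not pass the test for this gene (limma adjusted p = 0.0761). Of 8 Y-linked genes on the list only 3 were measured, and the others, Uty and Sry, did not follow Eif2s3y. The sex of the animals in a pool was not tested. Uty stood at -0.26, -0.11 and -0.04 in SPI and at 0.10, 0.02 and 0.02 in CAS (difference -0.18, adjusted p = 0.0341). Its probe sets disagreed, with differences of -0.42 and 0.06. The gene did not pass without SPI pool 1 (-0.12), SPI pool 2 (-0.20), CAS pool 1 (-0.16), CAS pool 2 (-0.19) or CAS pool 3 (-0.20), or when SPI and CAS arrays were fitted alone. The values of Sry were 0.07, 0.11 and -0.00 in SPI and -0.06, 0.08 and -0.09 in CAS, and they overlapped (difference 0.08, adjusted p = 0.7). Xist, the RNA that coats the inactive X chromosome, stood at -0.07, -0.02 and -0.04 in SPI and at 0.27, 0.18 and 0.28 in CAS, a difference of -0.29 (SE 0.0399, adjusted p = 0.000285). Here too the CAS pools stood apart, as the mean of Xist was -0.04 in E2 and 0.00 in SPI+E2. The gap between the 5′ and 3′ beta-actin controls, a measure of how complete the RNA copies are, was -0.15, -0.10 and -0.12 in SPI and 0.10, 0.15 and 0.17 in CAS. For GAPDH it was -0.03, -0.01 and -0.03 in SPI and 0.10, 0.10 and 0.16 in CAS, so neither measure overlapped between diets. In the E2 pools the gap ran from 0.09 to 0.13 for beta-actin and from 0.05 to 0.07 for GAPDH. In the SPI+E2 pools it ran from -0.17 to -0.04 and from -0.08 to -0.06. The part of these differences in the results that follow was not tested.

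Of 14217 genes, 1527 (10.7%) were higher in SPI and 2080 (14.6%) were lower at an adjusted p under 0.05. By probe set, 2562 (8.25%) were higher and 2814 (9.07%) were lower, or 1807 lower without CAS pool 1 and 1779 without CAS pool 3. The rises were fewer but larger: the median difference was 0.31 among genes that were higher and -0.25 among those that were lower, against -0.01 over all genes. At 1.5-fold or more, 289 of the genes that passed were higher and 63 were lower, and at 2-fold 44 were higher and 4 were lower. The 3 SPI values of a gene lay above all 3 CAS values in 2411 genes (17.0%) and below them in 3270 (23.0%). Among the genes that passed, 3535 of 3607 had pools that did not overlap. A probe set varied more within SPI than within CAS, with a median SD of 0.0957 against 0.0694 (n = 3 pools each).

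Of the 12 largest rises 5 were on a nerve list, and of the 12 largest falls 4 were on the cartilage list. Outside the nerve and cartilage lists, Aldoc, the aldolase of brain and glia, stood at 0.84, 0.87 and 0.84 in SPI and at -0.34, -0.33 and -0.27 in CAS. The gene was 1.16 higher (SE 0.0373, limma adjusted p = 1.05e-08). Sst, which encodes the peptide hormone somatostatin, was 1.13 higher, and Slc12a5, the chloride exporter of neurons, was 1.11 higher, so genes outside the fixed nerve lists could still be neural. Gpx2, a glutathione peroxidase best known from gut epithelium, stood at 0.63, 0.51 and 0.55 in SPI and at -0.32, -0.62 and -0.61 in CAS. It was 1.08 higher (SE 0.0833, adjusted p = 3.3e-06), and was higher in each SPI pool than in any CAS pool. Calb1, a calcium-binding protein of neurons and of cells that transport calcium, was 0.95 higher (SE 0.105, adjusted p = 5.74e-05). Among the falls, Myl4, the embryonic and atrial myosin light chain, stood at -1.23, -1.13 and -1.03 in SPI and at -0.15, -0.16 and -0.12 in CAS. Its difference of -0.99 (SE 0.0495, adjusted p = 1.15e-07) was the largest of any gene on the muscle list. Serpinb2, an inhibitor of plasminogen activators, stood at -0.47, -0.19 and -0.19 in SPI and at 0.58, 1.04 and 0.38 in CAS, with a wide spread in CAS and no overlap (difference -0.95, SE 0.135, adjusted p = 0.000362).

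**Figure D1:**
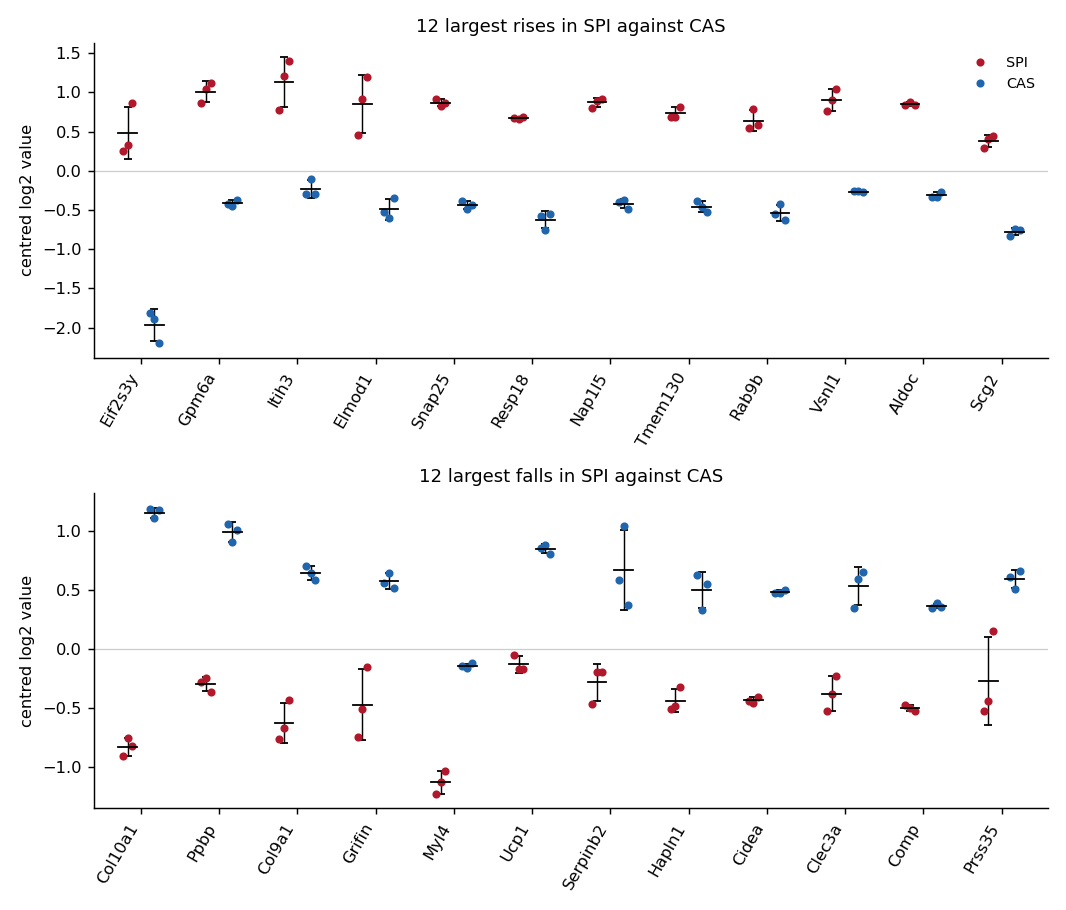
Centred log2 values of the 12 genes with the largest rise (upper panel) and the 12 with the largest fall (lower panel) among genes that passed the test with pools that did not overlap. Each point is a pool, red for SPI and blue for CAS, and bars show the mean ± SD of 3 pools. The SPI values of Aldoc lie between 0.84 and 0.87, all above its CAS values, and those of Myl4 lie below its CAS values.

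Functional groups were then read by lists of genes, each described by how many measured members passed the test in each direction and by its median. Over all genes the shares to set these against are 10.7% higher and 14.6% lower, with a median of -0.01. Members of a list are not replicates, and no test was made of a list as a whole. Of 66 counts of 5 or more genes in the 90 lists, 42 stayed within 1.5 times whichever of the 12 arrays was left out, and the pools that moved a count further are named beside it. Where 0 genes are given for a direction, limma at an unadjusted p under 0.05 also gave 0, other than 1 platelet gene higher, 1 B cell gene lower and 3 T cell genes higher. With unmoderated variances it gave 0 after adjustment, other than 1 platelet and 1 ribosomal protein gene higher.

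**Figure D2:**
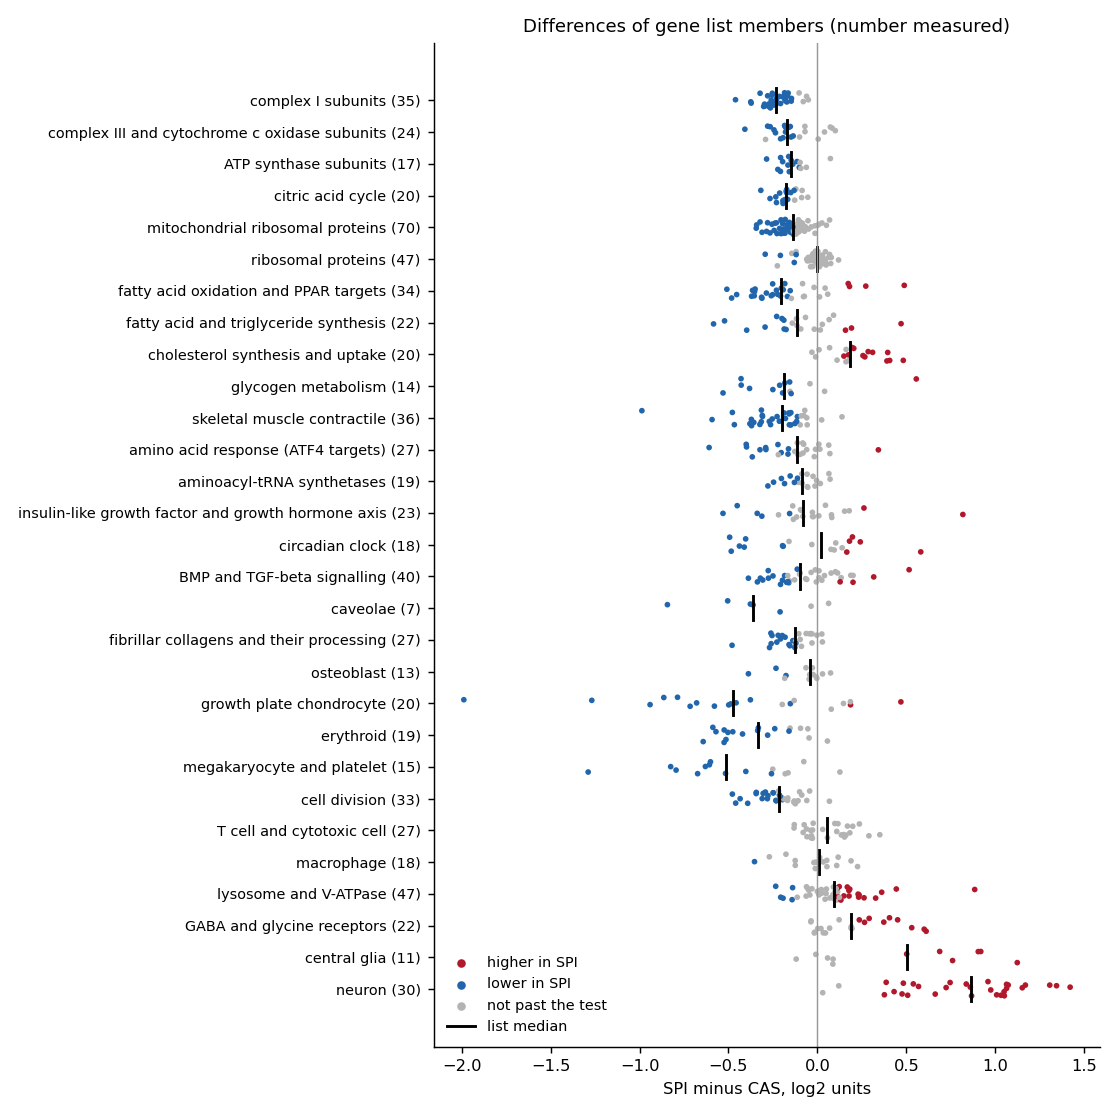
SPI minus CAS difference, in log2 units, of each measured member of selected gene lists, with the number measured in brackets. Red points were higher in SPI at an adjusted p under 0.05, blue points lower and grey points not past the test, and the black bar is the median of the list. The respiratory chain, muscle and erythroid lists lie to the left of 0, the ribosomal protein list is centred near 0, and the cholesterol and neuron lists lie to the right.

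Genes of the circadian clock split between the diets. In this clock Bmal1 pairs with Clock or Npas2 and drives genes through E-boxes, among them the repressors of the Per, Cry and Nr1d families and the output factors Dbp and Tef. Nr1d proteins in turn repress, and Ror proteins activate, Bmal1 and Nfil3 through ROR elements. Of 18 clock genes measured, 5 were higher in SPI (3 without SPI pool 2) and 7 were lower, with a median of 0.02. Lower genes were Bmal1, Npas2, Clock (-0.19), Cry1 (-0.48), Nfil3, Rora (-0.40) and Hlf (-0.20), and higher genes were Dbp, Tef, Nr1d1, Nr1d2 (0.18) and Per3 (0.17). Probe sets of Per3 ran from -0.09 to 0.42 and those of Nr1d2 from -0.01 to 0.38, so not every probe set of these genes was higher. Those of Rora ran from -0.68 to -0.13, of Clock from -0.32 to -0.07 and of Hlf from -0.27 to -0.01. Clock did not pass without CAS pool 1 (-0.17) or SPI pool 2 (-0.15), nor Nr1d2 without CAS pool 1 (0.16) or SPI pool 2 (0.17). The promoters shown were picked from genes that passed the test and carry an element, so they cannot relate element to direction: Bmal1 (chr1:176766078-176766377, + strand), Nr1d1 (chr10:84229405-84229704, - strand) and Tef (chr7:115206577-115206876, + strand). They run from 250 bases before the start to 50 after it, 5′ to 3′, from RefSeq on GRCr8. Capitals mark the ROR element TAGGTCA in Bmal1 and the E-box CACGTG in Nr1d1 and Tef, each searched on both strands.
Bmal1: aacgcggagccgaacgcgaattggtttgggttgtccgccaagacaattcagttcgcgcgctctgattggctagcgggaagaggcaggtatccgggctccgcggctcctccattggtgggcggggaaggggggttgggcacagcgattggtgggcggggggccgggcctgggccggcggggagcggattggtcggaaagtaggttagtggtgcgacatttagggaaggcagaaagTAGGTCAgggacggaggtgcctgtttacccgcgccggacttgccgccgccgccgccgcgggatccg
Nr1d1: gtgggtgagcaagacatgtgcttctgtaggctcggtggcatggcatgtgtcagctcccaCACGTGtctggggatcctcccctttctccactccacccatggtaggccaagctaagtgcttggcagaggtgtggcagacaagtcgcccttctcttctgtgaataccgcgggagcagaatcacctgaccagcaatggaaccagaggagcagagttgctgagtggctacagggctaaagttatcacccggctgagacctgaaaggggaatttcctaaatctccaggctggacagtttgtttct
Tef: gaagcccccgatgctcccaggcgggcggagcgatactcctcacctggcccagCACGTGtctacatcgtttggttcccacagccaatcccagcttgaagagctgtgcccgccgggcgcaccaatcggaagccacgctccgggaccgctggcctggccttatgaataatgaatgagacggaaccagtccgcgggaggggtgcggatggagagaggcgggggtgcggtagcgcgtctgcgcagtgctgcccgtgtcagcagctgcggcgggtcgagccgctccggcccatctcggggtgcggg
The ROR element began 16 bases before the start of Bmal1, and the E-boxes 191 and 198 bases before those of Nr1d1 and Tef. Nr1d1 has 2 listed starts and only the window shown held the E-box. An E-box was in 2148 of 33469 promoters of that length (6.42%) and in 4 of 16 clock promoters, and the ROR element was in 880 (2.63%) and in 1 of the 16. Besides Nr1d1 and Tef, the clock genes with an E-box were Bhlhe40 and Bhlhe41, which did not pass the test. These matches describe the sequence only.

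Dbp, a factor that relays the clock to output genes, showed the largest rise of the group. It stood at 0.28, 0.26 and 0.28 in SPI and at -0.39, -0.25 and -0.29 in CAS, a difference of 0.58 (SE 0.0535, limma adjusted p = 1.36e-05). Tef, its relative, stood at 0.03, 0.11 and 0.13 in SPI and at -0.17, -0.18 and -0.11 in CAS (difference 0.24, SE 0.0581, adjusted p = 0.0102). The pools of the diets did not overlap for either factor. Nr1d1, the repressor also called Rev-erb alpha, stood at -0.15, -0.06 and -0.04 in SPI and at -0.27, -0.33 and -0.24 in CAS (difference 0.20, SE 0.0532, adjusted p = 0.0182). It did not pass without CAS pool 2 (0.17), SPI pool 2 (0.19) or SPI pool 3 (0.18). Bmal1 went the other way. It stood at -0.32, -0.25 and -0.41 in SPI and at -0.01, 0.00 and 0.26 in CAS, a difference of -0.41 (SE 0.0697, adjusted p = 0.00123). For Npas2 the values were -0.67, -0.52 and -0.30 in SPI and 0.09, -0.08 and -0.01 in CAS (difference -0.49, SE 0.0836, adjusted p = 0.00123). Nfil3, a repressor that competes with Dbp for its sites, stood at -0.46, -0.52 and -0.38 in SPI and at -0.06, 0.02 and -0.01 in CAS (difference -0.44, SE 0.0471, adjusted p = 4.65e-05). Thus the activators and Nfil3 were low in all 3 SPI pools and Dbp and Tef were high in all 3. The light-responsive repressors Per1 (0.09) and Per2 (0.10) and the repressor Cry2 (0.08) did not pass the test, although Per2 did without SPI pool 3 (0.17). By the methods, the rats were killed an hour after the lights came on.

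**Figure D3:**
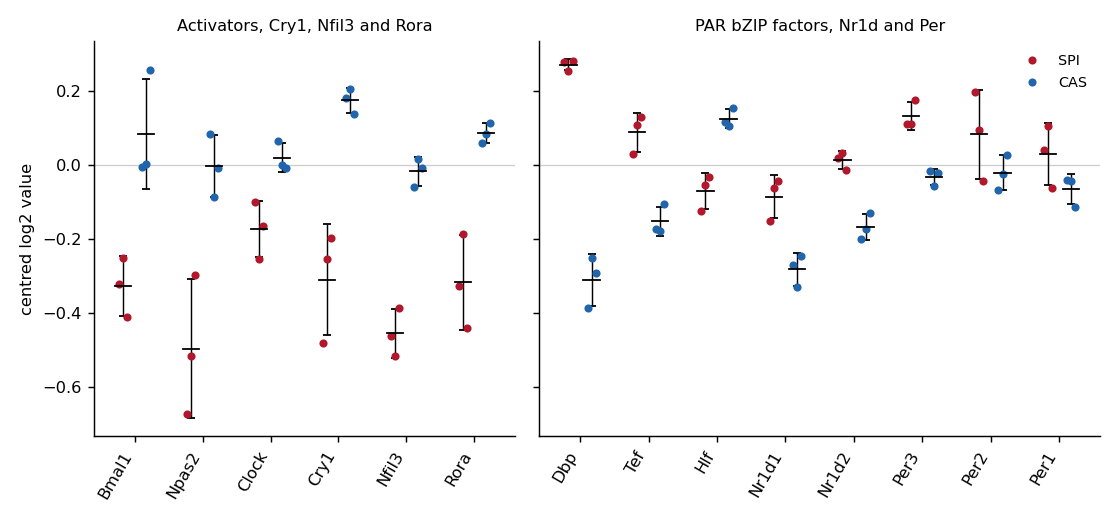
Centred log2 values of clock genes in the SPI pools (red) and CAS pools (blue), with the mean ± SD of 3 pools. In the left panel the SPI pools of Bmal1, Npas2 and Nfil3 lie below their CAS pools, and in the right panel those of Dbp, Tef and Nr1d1 lie above them, while the pools of Per1 and Per2 are mixed or close.

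Genes of mitochondrial respiration were lower in SPI as a group. Of 35 measured subunits of complex I, which takes electrons from NADH, 31 were lower and 0 higher, and all 35 differences were below 0 (median -0.23). Among 24 subunits of complex III and cytochrome c oxidase 15 were lower and 0 higher (median -0.17), and 13 of 17 ATP synthase subunits were lower, or 8 without CAS pool 1. The citric acid cycle list had 15 of 20 lower and 0 higher, and all 20 of its genes had SPI pools below the CAS pools. Ndufs1, the largest subunit of complex I, stood at -0.36, -0.38 and -0.31 in SPI and at 0.14, 0.06 and 0.13 in CAS. The difference was -0.46 (SE 0.0463, limma adjusted p = 2.81e-05). Cox8b, a cytochrome oxidase subunit of muscle and brown fat, stood at -0.39, -0.45 and -0.42 in SPI and at -0.01, -0.02 and 0.00 in CAS (difference -0.41, SE 0.0358, adjusted p = 9.76e-06). Sdhb, of succinate dehydrogenase, stood at -0.29, -0.25 and -0.23 in SPI and at 0.01, 0.02 and -0.00 in CAS (difference -0.27, SE 0.0368, adjusted p = 0.000304). Within each of these genes the pools of a diet were close together and the diets were apart. Ppargc1a, a coactivator of mitochondrial genes, stood at -0.30, -0.11 and -0.17 in SPI and at 0.10, 0.00 and 0.17 in CAS (difference -0.29, SE 0.0562, adjusted p = 0.00313; probe sets -0.43 to -0.15). The mitochondrial ribosome also fell, with 36 of 70 protein genes lower (21 without CAS pool 1) and 0 higher (median -0.14). Cytosolic ribosomal proteins gave 4 of 47 lower, or 1 without CAS pool 1, CAS pool 3, SPI pool 3 or E2 pool 1 and 2 without CAS pool 2 or E2 pool 3, and 0 higher.

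Muscle genes moved in the same direction as the respiratory genes. Of 36 measured contractile genes 28 were lower in SPI and 0 higher (median -0.20), and the mean of the list was -0.26, -0.26 and -0.25 in SPI and -0.02, -0.02 and -0.01 in CAS. For complex I the list mean was -0.19, -0.22 and -0.21 in SPI and 0.03, 0.00 and 0.03 in CAS. The part of muscle in the respiratory result was not tested. Slow-fibre genes were among the larger falls. Myh7, the slow myosin heavy chain, stood at -0.54, -0.45 and -0.49 in SPI and at 0.06, 0.04 and 0.19 in CAS (difference -0.59, SE 0.0486, adjusted p = 5.66e-06; probe sets -0.88 and -0.30). Tnnc1, the troponin C of slow and cardiac muscle, was 0.47 lower in SPI on the log2 scale, at -0.50, -0.53 and -0.53 against -0.06, -0.07 and -0.03 in CAS. The 8 contractile genes that did not pass the test included the skeletal actin gene Acta1 (-0.06, limma adjusted p = 0.26) and the fast myosin gene Myh4 (-0.06, adjusted p = 0.456). Slow-fibre and fast-fibre genes were not compared as sets.

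Enzymes that burn or store fuel were also lower for the most part. Of 34 genes of fatty acid oxidation and PPAR targets 22 were lower and 4 higher (median -0.21), the higher count being 2 without CAS pool 1, CAS pool 2, SPI pool 1, E2 pool 1, E2 pool 3 or SPI+E2 pool 1. Cd36, which takes up fatty acids, stood at -0.46, -0.33 and -0.45 in SPI and at 0.10, 0.06 and 0.14 in CAS (difference -0.51, SE 0.0516, adjusted p = 3.03e-05). Cpt1b, which admits fatty acids to mitochondria in muscle, stood at -0.44, -0.44 and -0.36 in SPI and at -0.06, -0.08 and -0.02 in CAS (difference -0.36, SE 0.0389, adjusted p = 4.53e-05). The PPAR targets Acot1, a cytosolic thioesterase, and Angptl4, an inhibitor of lipoprotein lipase, were exceptions at 0.49 and 0.27 higher (adjusted p = 0.00138 and 0.000905). Glycogen genes gave 10 of 14 lower and 1 higher. Pygm, the glycogen phosphorylase of muscle, stood at -0.30, -0.25 and -0.32 in SPI and at 0.11, 0.12 and 0.18 in CAS (difference -0.43, SE 0.0388, adjusted p = 1.19e-05). Pck1, which commits carbon to glucose and glycerol synthesis in liver, kidney and fat, stood at -0.21, -0.09 and -0.21 in SPI and at 0.53, 0.46 and 0.41 in CAS (difference -0.64, SE 0.0565, adjusted p = 1.02e-05). On the glycolysis list 13 of 25 genes were lower and 5 higher, and a fit of SPI and CAS arrays alone gave 7 lower.

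Lipid synthesis divided into cholesterol genes, of which more were higher, and fatty acid genes, of which more were lower. The cholesterol list had 12 of 20 higher (8 without CAS pool 1) and 0 lower, with a median of 0.19. Tm7sf2, a sterol reductase, stood at 0.38, 0.31 and 0.26 in SPI and at -0.06, -0.24 and -0.19 in CAS (difference 0.48, SE 0.0561, limma adjusted p = 8.29e-05). Cyp51, the sterol demethylase, stood at 0.25, 0.22 and 0.31 in SPI and at -0.04, -0.10 and -0.01 in CAS (difference 0.31, SE 0.0461, adjusted p = 0.0005). Sqle, squalene epoxidase, and Sc5d, a sterol desaturase, were 0.39 and 0.40 higher. The transcription factor of the pathway, Srebf2, stood at 0.11, 0.04 and -0.12 in SPI and at 0.01, 0.02 and -0.03 in CAS, with pools that overlapped (adjusted p = 0.931). Fatty acid and triglyceride synthesis gave 9 of 22 lower and 3 higher (1 higher without CAS pool 2 or CAS pool 3). Thrsp, a factor that promotes lipogenesis, stood at -0.07, -0.11 and -0.06 in SPI and at 0.54, 0.49 and 0.50 in CAS (difference -0.58, SE 0.0383, adjusted p = 9.61e-07). Fasn, fatty acid synthase, stood at -0.23, -0.16 and -0.19 in SPI and at 0.35, 0.32 and 0.32 in CAS (difference -0.52, SE 0.0365, adjusted p = 1.62e-06). Scd2, a desaturase, was 0.47 higher. Cholesterol is also made by myelinating glia, and the Schwann cell list, whose mean was 0.41, 0.39 and 0.37 in SPI and -0.23, -0.20 and -0.20 in CAS, was higher in the same pools. Its part in the cholesterol result was not tested.

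Fat cell markers were lower more often than higher, although some well-known markers did not pass the test. Of 16 white adipocyte genes 9 were lower (6 without CAS pool 1) and 0 higher, and Fabp4, the fatty acid carrier of adipocytes, was 0.43 lower on the log2 scale in SPI. The hormone gene Adipoq stood at 0.05, -0.09 and 0.04 in SPI and at -0.01, -0.01 and -0.02 in CAS, and Plin1, which coats the fat droplet, likewise overlapped (differences 0.01 and 0.06, adjusted p = 0.892 and 0.606). Of 10 brown adipocyte genes 6 were lower and 1 was higher. Ucp1, the uncoupling protein that makes heat, stood at -0.05, -0.17 and -0.17 in SPI and at 0.86, 0.89 and 0.81 in CAS, a difference of -0.98 (SE 0.0508, adjusted p = 1.46e-07).

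Genes of the amino acid response tended to be lower in SPI. This response, run by the factor Atf4, raises enzymes that make or import amino acids when they are short. By the methods the 2 diets were matched for essential amino acids. Of 27 genes 11 were lower (median -0.11), and the mean of the list was -0.12, -0.08 and -0.08 in SPI and 0.06, 0.06 and 0.04 in CAS. Asns, asparagine synthetase, stood at -0.52, -0.23 and -0.20 in SPI and at 0.26, 0.29 and 0.31 in CAS (difference -0.61, SE 0.0777, limma adjusted p = 0.000173). Aldh1l2, of mitochondrial folate metabolism, stood at -0.17, -0.17 and -0.16 in SPI and at 0.21, 0.22 and 0.26 in CAS (difference -0.40, SE 0.0405, adjusted p = 3.08e-05). Atf5, a related factor, was 0.40 lower on the log2 scale and Aldh18a1, of proline synthesis, 0.37 lower. Atf4 itself stood at -0.02, -0.04 and -0.00 in SPI and at 0.08, 0.04 and 0.05 in CAS and did not pass the test (adjusted p = 0.123). The transporters Slc38a4 and Slc38a5, which carry neutral amino acids, had differences of -0.60 and -0.54 (adjusted p = 1.35e-05 and 1.78e-05). Among amino acid carriers as a whole, 9 of 42 were higher (5 without CAS pool 1) and 6 lower. The enzymes that charge transfer RNA gave 7 of 19 lower, but 1 without CAS pool 1, 2 without SPI pool 2, and 3 without CAS pool 2, CAS pool 3 or SPI pool 1.

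**Figure D4:**
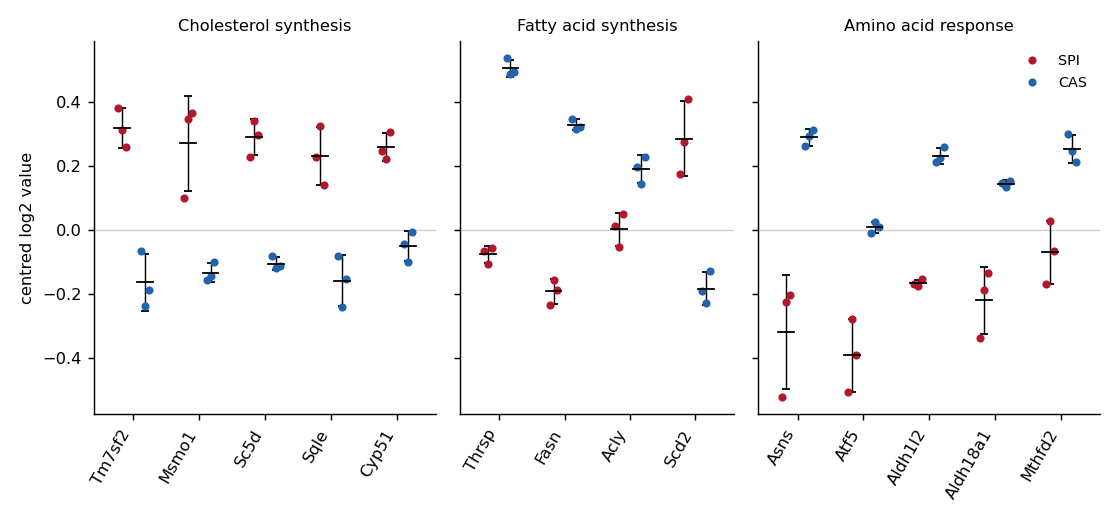
Centred log2 values of enzymes of cholesterol synthesis (left), fatty acid synthesis (middle) and the amino acid response (right) in SPI pools (red) and CAS pools (blue), with the mean ± SD of 3 pools. The SPI pools lie above the CAS pools for the 5 cholesterol enzymes and for Scd2, and below them for Thrsp, Fasn, Acly and the 5 genes at the right.

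Growth hormone carries growth of the skeleton through insulin-like growth factor, whose binding proteins hold it in tissue. Of 23 genes of this axis 5 were lower and 2 higher. Igfbp2, a binding protein, stood at -0.59, -0.48 and -0.59 in SPI and at -1.40, -1.40 and -1.31 in CAS, a difference of 0.82 (SE 0.0541, limma adjusted p = 1.02e-06). Igf1, the growth factor, was lower: it stood at 0.01, -0.03 and 0.06 in SPI and at 0.38, 0.30 and 0.38 in CAS (difference -0.34, SE 0.0455, adjusted p = 0.000248). Irs1, the adaptor of the insulin and Igf1 receptors, stood at -0.53, -0.35 and -0.14 in SPI and at 0.03, 0.23 and 0.31 in CAS (difference -0.53, SE 0.103, adjusted p = 0.00293). Ghr, the growth hormone receptor, had a wide spread in SPI, at -0.64, -0.52 and -0.15, against 0.00, 0.02 and 0.03 in CAS (difference -0.45, SE 0.111, adjusted p = 0.0115). Igfbp3, the main carrier in blood, was 0.31 lower on the log2 scale and Igfbp4, an inhibitory binding protein, 0.26 higher.

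Lists of bone cells differed from each other, and only the osteocyte list was lower for the most part. Of 13 osteoblast genes 3 were lower and 0 higher (median -0.04). Col1a1, the main collagen of bone, stood at -0.02, 0.01 and 0.02 in SPI and at -0.02, 0.02 and 0.01 in CAS (adjusted p = 0.96). The osteocyte list had 6 of 10 lower and 0 higher (median -0.23). Dmp1, a matrix protein of osteocytes, stood at -0.39, -0.36 and -0.43 in SPI and at 0.10, 0.03 and 0.05 in CAS (difference -0.45, SE 0.0408, limma adjusted p = 1.28e-05). Phex, the peptidase lost in X-linked low-phosphate rickets, stood at -0.68, -0.36 and -0.48 in SPI and at 0.35, 0.35 and 0.15 in CAS (difference -0.79, SE 0.106, adjusted p = 0.000248). Sost, the gene of the Wnt inhibitor sclerostin, stood at 0.20, 0.17 and -0.19 in SPI and at -0.04, -0.03 and -0.03 in CAS, and the pools overlapped (adjusted p = 0.538). Its probe sets differed in sign, at -0.08 and 0.27. Osteoclast genes gave 2 of 10 higher and 2 lower (1 lower without SPI pool 1, SPI pool 2, SPI pool 3, CAS pool 1 or CAS pool 3). Ctsk, the collagen-cutting cathepsin of osteoclasts, was 0.23 higher (SE 0.034, adjusted p = 0.000502), whereas Car2, the carbonic anhydrase that supplies acid, had a difference of -0.28 (SE 0.0356, adjusted p = 0.000187).

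Genes of BMP and TGF-beta signalling, caveolae and connective tissue matrix were lower more often than higher. Of 40 BMP and TGF-beta genes 14 were lower (9 without CAS pool 3) and 4 higher (1 without CAS pool 1, CAS pool 2 or SPI pool 1, 2 without CAS pool 3). Bmp2, a bone-inducing ligand, stood at -0.24, -0.22 and -0.04 in SPI and at 0.28, 0.09 and 0.29 in CAS (difference -0.39, SE 0.0652, limma adjusted p = 0.00117). The probe sets of Bmp2 differed by -0.44, lowest in SPI pool 1 (-0.45), and by -0.34, lowest in SPI pool 2 (-0.39). Its antagonist Grem1 stood at 0.03, 0.04 and 0.24 in SPI and at -0.34, -0.43 and -0.46 in CAS (difference 0.52, SE 0.0638, adjusted p = 0.000137). Ligand and antagonist thus lay apart in opposite directions. Of 7 genes of caveolae, the small pits of the cell membrane, 5 were lower, and Cav1, their scaffold, stood at -0.35, -0.26 and -0.29 in SPI and at 0.14, 0.18 and 0.29 in CAS (difference -0.50, SE 0.0545, adjusted p = 4.86e-05; probe sets -0.76 to -0.30). Fibrillar collagens and the enzymes that process them gave 15 of 27 lower and 0 higher (median -0.13), or 10 without CAS pool 2 and 7 when SPI and CAS arrays were fitted alone. Loxl2, which crosslinks collagen, was 0.48 lower on the log2 scale. Small proteoglycans and other connective tissue proteins gave 18 of 28 lower and 3 higher. Aspn, a proteoglycan of periosteum and cartilage that binds collagen, was 0.53 lower and Tnmd, a tendon marker, 0.39 lower, whereas Eln, elastin, was 0.44 higher (adjusted p = 0.0001).

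Genes of platelets and red cells were mostly lower in SPI. Of 15 platelet genes 10 were lower and 0 higher (median -0.52), and the list mean was -0.19, -0.09 and -0.11 in SPI and 0.34, 0.35 and 0.35 in CAS. Tubb1, the tubulin of platelets, stood at -0.24, -0.09 and -0.11 in SPI and at 0.60, 0.63 and 0.70 in CAS (difference -0.79, SE 0.0859, limma adjusted p = 4.88e-05). Erythroid genes gave 14 of 19 lower and 0 higher (median -0.34). Rhag, a red cell membrane channel, stood at -0.02, 0.09 and 0.07 in SPI and at 0.64, 0.63 and 0.63 in CAS (difference -0.59, SE 0.0512, adjusted p = 9.2e-06). Hbb, a globin, and Alas2, the first enzyme of heme in red cells, had differences of 0.06 and -0.05 and did not pass the test (adjusted p = 0.307 and 0.44). Cell division genes gave 19 of 33 lower and 0 higher (median -0.21), or 12 lower when the SPI and CAS arrays were fitted alone, and Hmmr, a spindle protein, stood at -0.20, -0.13 and 0.01 in SPI and at 0.33, 0.33 and 0.41 in CAS (difference -0.46, SE 0.0606, adjusted p = 0.00022). Of 14 B cell genes 5 were higher (3 after quantile normalization) and 0 lower. Ms4a1, the B cell antigen CD20, stood at 0.53, 0.78 and 0.85 in SPI and at 0.19, 0.08 and 0.21 in CAS (difference 0.56, SE 0.0992, adjusted p = 0.00156), or 0.36 after quantile normalization, whereas Cd79b of the B cell receptor overlapped (difference 0.02). Of 27 T cell and cytotoxic genes 0 passed the limma test in either direction (1 higher without CAS pool 2, CAS pool 3, SPI pool 2, SPI pool 3 or SPI+E2 pool 2). On the macrophage list of 18 genes, Cd14, a receptor for bacterial lipopolysaccharide, passed at -0.35.

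**Figure D5:**
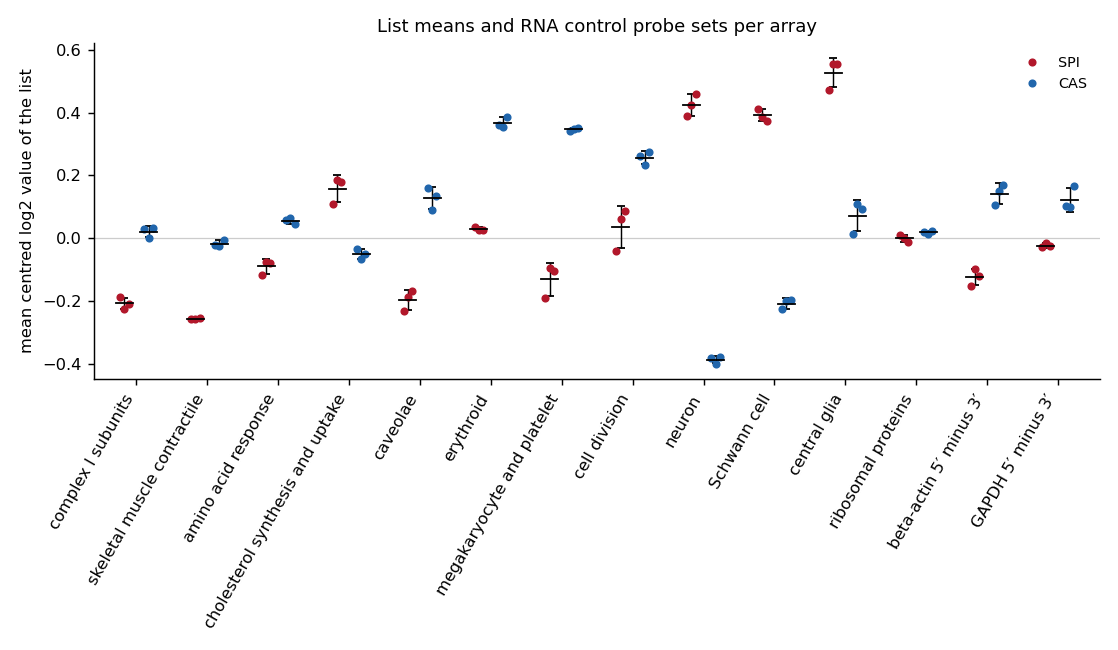
Mean centred log2 value of each gene list in each SPI pool (red) and CAS pool (blue), and at the right the 5′ minus 3′ gap of the beta-actin and GAPDH control probe sets, with the mean ± SD of 3 pools. The pools of the diets do not overlap for any entry, and the ribosomal protein list has the smallest gap, with all values between -0.01 and 0.02.

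Neural genes extended beyond the markers of axons. In 75 potassium channel genes 24 were higher and 5 lower (3 lower without CAS pool 2, CAS pool 3 or SPI pool 2), and 9 of 22 GABA and glycine receptor genes were higher and 0 lower. Kcna1, an axonal potassium channel, stood at 0.39, 0.65 and 0.62 in SPI and at -0.37, -0.41 and -0.28 in CAS (difference 0.90, SE 0.0711, limma adjusted p = 3.87e-06). Gria2, a glutamate receptor subunit, stood at 0.39, 0.39 and 0.55 in SPI and at -0.35, -0.35 and -0.20 in CAS (difference 0.75, SE 0.0664, adjusted p = 1.06e-05). Of 11 central glia genes 6 were higher and 0 lower, although oligodendrocytes and astrocytes belong to brain and spinal cord. Mobp, a myelin protein of oligodendrocytes, stood at 0.91, 1.25 and 1.06 in SPI and at 0.12, 0.14 and 0.20 in CAS (difference 0.92, SE 0.0828, adjusted p = 1.16e-05). Gfap, the filament of astrocytes, stood at 0.94, 0.81 and 0.85 in SPI and at 0.01, 0.18 and 0.13 in CAS (difference 0.76, SE 0.0584, adjusted p = 3.23e-06). The mean of the neuron list was 0.39, 0.42 and 0.46 in SPI and -0.38, -0.40 and -0.38 in CAS. How much nerve each pool carried was not tested in any other way.

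Lysosome and proton pump genes gave 17 of 47 higher and 5 lower (2 lower without CAS pool 3 or SPI pool 2, 3 without CAS pool 1, CAS pool 2 or SPI pool 1). Ctsz, a lysosomal protease, stood at 0.31, 0.16 and 0.14 in SPI and at -0.16, -0.14 and -0.17 in CAS (difference 0.36, SE 0.0524, limma adjusted p = 0.000427). Atp6v1a, the catalytic subunit of the proton pump, was 0.33 higher (SE 0.039, adjusted p = 0.0001). Patterning genes had no common direction. Of 22 Hox genes 6 were higher (3 without CAS pool 1 or CAS pool 3) and 3 lower, against 10.7% and 14.6% over all genes. The median was 0.00, and 11 of the 22 differences lay above 0. Hoxa9 was 0.44 higher (SE 0.0608, adjusted p = 0.000304), at -0.03, 0.15 and 0.11 in SPI against -0.32, -0.38 and -0.39 in CAS. Imprinted genes, expressed from the copy of a single parent, were divided: Ndn, of postmitotic neurons, was 0.64 higher and Meg3, a long noncoding RNA, 0.47 higher, whereas Mest, of growing mesoderm, was 0.35 lower on the log2 scale.

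Estrogen receptors and known estrogen targets gave 5 of 22 genes higher, but 2 without CAS pool 1, CAS pool 3 or SPI pool 1 and 3 without SPI pool 3. Pgr, the progesterone receptor and a classic target, stood at 0.21, 0.00 and -0.08 in SPI and at 0.04, -0.00 and -0.03 in CAS, and the pools overlapped (adjusted p = 0.74). Cyp1b1, which hydroxylates estradiol and is a target of the aryl hydrocarbon receptor, stood at 0.08, 0.21 and 0.12 in SPI and at -0.24, -0.30 and -0.32 in CAS (difference 0.42, SE 0.0553, limma adjusted p = 0.000215). Of 35 Wnt genes 2 were higher and 2 lower, of 29 FGF ligands and receptors 3 were higher and 1 lower (2 without CAS pool 2 or SPI+E2 pool 2), and of 50 metalloproteinases and inhibitors 9 were higher and 8 lower (3 lower without CAS pool 1, 4 without CAS pool 3, SPI pool 1 or SPI pool 3, and 5 without CAS pool 2). Angiogenic factors gave 8 of 18 lower, or 5 without CAS pool 1 or CAS pool 3. Aqp3, a channel for water and glycerol, stood at -0.01, 0.01 and 0.15 in SPI and at 0.90, 0.44 and 1.05 in CAS (difference -0.75, SE 0.135, adjusted p = 0.00185). Its SPI pools were all below the lowest CAS pool. Of 13 neutrophil granule genes 4 were higher, and S100a9, a calcium-binding protein of neutrophils, was 0.26 higher (SE 0.046, adjusted p = 0.00169). Tyrp1, an enzyme of melanin synthesis, stood at 0.11, 0.15 and 0.22 in SPI and at -0.57, -0.51 and -0.63 in CAS (difference 0.73, SE 0.059, adjusted p = 4.82e-06).

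The SPI pools were also set directly against the E2 pools, which asks where the diet and the hormone left different levels. Over all genes 11.1% were higher in SPI than in E2 and 13.0% were lower. This comparison uses the same SPI pools as that with CAS, so the 2 are not independent. The 5′ minus 3′ gaps of the control probe sets were also lower in every SPI pool than in any E2 pool. Their part in this comparison was not tested. Of the 2080 genes lower in SPI than in CAS, 1228 were also lower than in E2, 113 were higher than in E2 and 739 did not pass. Of the 1527 genes higher than in CAS, 636 were also higher than in E2, 34 were lower and 857 did not pass. Complex I subunits were lower than in E2 in 34 of 35 genes, and contractile genes in 28 of 36. For these groups the SPI pools were low against both casein-fed groups. The SPI+E2 pools, also from rats fed SPI, had a list mean of 0.01 for complex I and 0.08 for contractile genes. In the E2 pools the list means were 0.04 and 0.06. Erythroid and cell division genes went the other way against E2: 13 of 19 erythroid genes and 22 of 33 cell division genes were higher in SPI than in E2. Rhag, lower than in CAS by 0.59 on the log2 scale, was 0.26 higher than in E2 (adjusted p = 0.00364). Igfbp2, higher in SPI than in CAS, was lower in SPI than in E2 by 1.09 on the log2 scale (adjusted p = 4.5e-07). Pck1 and Ucp1, lower than in CAS, were 0.20 and 0.33 higher than in E2 (adjusted p = 0.0227 and 0.000627), and Igf1 differed from E2 by 0.03 (adjusted p = 0.625).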

How the data were processed

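Pooled tibial RNA was hybridised to Affymetrix whole-genome rat arrays. GCOS and RMA stand, without versions, in the submitters' processing notes. By the study's methods the authors normalised the RMA values by chip and by gene with GeneSpring. The log base is stated for the RMA step and not for the deposited table, so folds rest on reading it as log2. Each of the 31042 probe sets has a median of 0 over the 12 arrays (values -2.2 to 3.466), so neither signal over background nor absolute level can be read, and precision is limited by the number of arrays. Of 31099 rows, 57 controls were left out, and 0 columns of sample values were unused. A single gene symbol was given for 20826 probe sets, several for 436 and none for 9780. A gene's value is the mean of the probe sets that carry its symbol alone (14217 genes, 4525 with more than 1 probe set). The current gene table held the gene number of 20758 probe sets and changed 0 symbols.

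A linear model over the 4 groups, taken from sample titles, was fitted in R 4.3.3 by limma 3.58.1 without covariates. SPI minus CAS and SPI minus E2 were tested two-sided, with Benjamini-Hochberg adjustment over all probe sets or genes, and a call needs an adjusted p under 0.05. Pools do not overlap where all 3 values of a group exceed all 3 of the other. The scripts were first tested on simulated data of known change. Named genes were the 12 largest rises and falls among calls that do not overlap, the same outside nerve and cartilage lists, up to 4 members of each of 90 lists with the largest difference, genes the study named and sex-linked genes; other members of a list named here were chosen after their values were seen. The comparison and the lists were chosen with earlier results of these data known. Alternatives were a fit of 2 groups, a replicate block, quantile normalization, median centring, robust and unmoderated variances, array weights, a single probe set per gene, natural logarithms, other thresholds, and leaving out each array. Promoters from 250 bases before to 50 after the start are RefSeq's on GRCr8.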

Additional observations from a re-analysis of the deposited data

Results flagged for a closer look

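The effect of SPI was compared without E2 (SPI against CAS) and with E2 (SPI+E2 against E2), and the difference between the 2 effects was tested as an interaction in limma. It passed an adjusted p of 0.05 for 23 of the 24 genes with the largest rises and falls, with opposite sign to the effect without E2. These genes were chosen for that effect, which is subtracted in the interaction, so the choice itself favours an opposite sign. Over all genes 2240 of 14217 passed, and of the 1657 that also passed SPI against CAS, 1626 had the opposite sign; the same subtraction applies to them. Among genes that were higher in SPI, the effect with E2 minus the effect without it was -2.75 for Eif2s3y, -2.48 for Gpm6a, -2.00 for Scg2, -1.80 for Snap25, -1.79 for Vsnl1, -1.74 for Rab9b, -1.73 for Nap1l5, -1.71 for Resp18, -1.68 for Elmod1, -1.37 for Tmem130, -1.15 for Aldoc and -0.92 for Itih3. Among genes that were lower, it was 1.98 for Ppbp, 1.82 for Col10a1, 1.54 for Ucp1, 1.26 for Serpinb2, 1.08 for Cidea, 1.07 for Col9a1, 0.97 for Myl4, 0.90 for Grifin, 0.83 for Hapln1, 0.63 for Clec3a and 0.63 for Comp.

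Control probe sets, which enter no comparison of genes, also differed between the diets. SPI minus CAS was -0.26 for the 5′ minus 3′ gap of beta-actin, -0.14 for that of GAPDH and 0.41 for the mean of 14 bacterial hybridization controls. Those hybridization controls stood at 0.35, 0.25 and 0.02 in the SPI pools and at -0.11, -0.17 and -0.34 in the CAS pools.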

How the results depend on the processing

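Of 322 named genes that passed the test, 265 passed under every alternative, and 0 of the 322 changed sign. Of all 386 named genes 7 changed sign, none of which had passed. Scaling moved the median of all genes by no more than 0.01. At an adjusted p under 0.01, 1415 probe sets were higher in SPI and 1373 lower, 898 genes were higher and 1131 lower, and 983 rather than 1864 genes lay to the same side of both CAS and E2. A fit of the 6 arrays alone gave 1742 lower probe sets against 2814, with fewer samples in the fit. Probe sets at 1.5-fold numbered 614 higher and 140 lower, 1116 and 639 if values are natural logarithms, and 95 and 7 at 2-fold. Leaving out an array gave 1800 to 2528 higher and 1779 to 2939 lower probe sets, 1117 to 1537 higher and 1431 to 2111 lower genes, and 606 to 650 higher and 103 to 224 lower probe sets at 1.5-fold (224 without SPI pool 3). With the replicate block, the counts were 2526 higher and 2759 lower probe sets and 1512 higher and 2074 lower genes. Pools with the same number did not deviate together (correlations -0.08, -0.01 and 0.09), so the numbers were not taken as pairs. Quantile normalization of the count of probe sets that do not overlap and the threshold of 0.01 against E2 were chosen after seeing the data.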
